A study of Mus musculus with 12 samples.

Results

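The genes described here are the conjugating enzymes and carboxylesterases of the mouse: cytosolic glutathione S-transferases (Gst), microsomal glutathione S-transferases (Mgst), UDP-glucuronosyltransferases (Ugt), sulfotransferases (Sult) and carboxylesterases (Ces). They were chosen by symbol alone (Gst followed by a class letter and a number, Mgst, Ugt of subfamilies 1 to 3, Sult or Ces, each followed by a number), and 58 of the 17175 genes in the deposited table met the rule: 21 Gst, 3 Mgst, 11 Ugt, 9 Sult and 14 Ces genes. All 58 were found in the GENCODE M21 annotation under the same symbol. Glutathione S-transferases couple electrophilic compounds to glutathione, glucuronosyltransferases attach glucuronic acid, and sulfotransferases attach sulfate, so that drugs, dietary compounds, steroids and bilirubin become more soluble. Carboxylesterases hydrolyse esters and amides, drugs and lipids among them. The enterocytes of the small intestine, which meet these compounds first after a meal, are known to express many of these enzymes, and the conjugates leave the cell through efflux pumps.

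Total RNA of small intestine was sequenced in 4 groups of 3 libraries: WT proximal, WT distal, Bmpr1a cKO proximal and Bmpr1a cKO distal. Bmpr1a is one of the type I receptors through which cells sense bone morphogenetic proteins (BMPs), and the series' design text places the question in BMP signalling of epithelial cells and villus length along the gut. The promoter driving the recombinase, the strain, the age of the mice and whether the whole gut wall or a part of it was taken are not given in the sources used here. Nor do the labels tie each library to an animal of its own, so the p-values speak only for the spread among the libraries at hand.

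Depth was 11242024 to 17722756 recovered reads per library. Id1, a direct BMP target, stood at 972 to 1650 scaled counts (reads + 1, divided by the library's size factor) in the 6 WT libraries and at 112 to 232 in the 6 cKO libraries, while Bmpr1a itself showed no difference between genotypes in either segment (adjusted p = 0.983 proximal and 0.852 distal). All 4 listed proximal markers were lower, and 3 of 4 distal markers higher, in distal than in proximal WT libraries. The summed level of 8 B and plasma cell markers was 9387 to 23113 in WT distal and 251 to 637 in cKO distal libraries, against 1543 to 4809 and 456 to 750.3 in the proximal ones. The sum of 8 enterocyte markers was 289217 to 366110.0 in WT proximal, 121521 to 252707 in WT distal, 289407 to 328935 in cKO proximal and 224795 to 378044 in cKO distal libraries, with no marker at 0. The sum of 8 markers of T cells and intraepithelial lymphocytes was 11540.5 to 30822, 1497 to 3245, 8612 to 19464 and 1759 to 4219.8 in the same order. Mitochondrial transcripts took 17.4 to 26.0% of reads in WT proximal, 22.3 to 37.7% in WT distal, 9.75 to 14.8% in cKO proximal and 9.95 to 27.7% in cKO distal libraries. The sum of 4 hepatocyte markers, from the organ where many of these enzymes are most abundant, did not exceed 301 in any library. In bulk RNA, fewer cells of a type and less RNA per cell cannot be told apart.

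The 58 genes together took 1.28 to 1.47% of all reads in WT proximal libraries and 0.26 to 0.476% in WT distal libraries. In cKO libraries they took 1.45 to 1.55% proximally and 0.681 to 0.975% distally. The ranges of the proximal groups overlapped, while every cKO distal library lay above every WT distal library and below every proximal one. The families differed in this respect. The Gst genes took 0.484% ± 0.0676 (SD, n = 3) of reads in WT proximal, 0.0734% ± 0.00979 in WT distal and 0.157% ± 0.0161 in cKO distal libraries. The Ugt genes took 0.160% ± 0.0320, 0.0372% ± 0.0135 and 0.0820% ± 0.0120 in the same groups. The Mgst genes took 0.0698% ± 0.00362, 0.0363% ± 0.0128 and 0.101% ± 0.0207, so that the distal cKO share exceeded the WT proximal one in each library. The Ces genes took 0.396% ± 0.133, 0.139% ± 0.0830 and 0.380% ± 0.122, and the cKO distal and WT proximal libraries overlapped. The Sult genes took 0.244% ± 0.0713, 0.0542% ± 0.0125 and 0.0647% ± 0.0195, and the Sult shares of WT distal and cKO distal libraries overlapped.

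**Figure D1:**
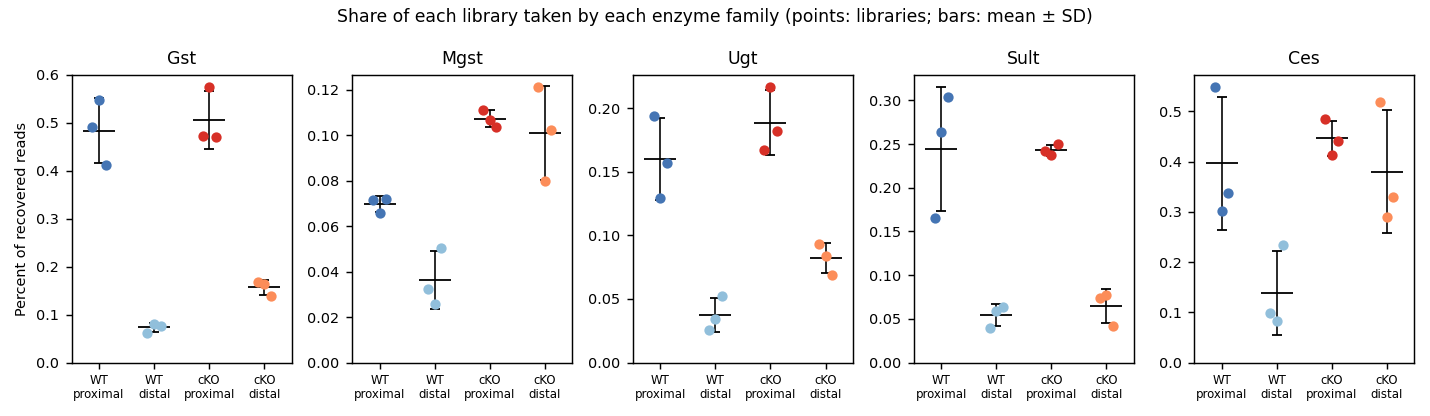
Share of recovered reads (percent, y axis) taken by each of the 5 enzyme families in the 12 libraries, by group (x axis); points are libraries and bars are the mean ± SD of 3. The WT distal libraries are the lowest for Gst, Mgst, Ugt and Ces. The cKO distal libraries stand between them and the proximal ones for Gst and Ugt but not for Mgst and Ces.

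Per kilobase of exon length, the only scale on which genes are compared here, the highest member in WT proximal libraries was Gstm3, a mu-class glutathione S-transferase, at 14617 ± 4558 scaled counts per kilobase (SD, n = 3). It was followed by Sult6b2 at 10305 ± 4886, Ces2c at 9732 ± 3194 and Gsta1 at 9704 ± 2028. The intervals of 1 SD around these 4 means overlap, so their order is not firm. In WT distal libraries the highest levels were those of 2 carboxylesterases, Ces2e at 3434 ± 2139 and Ces2a at 3132 ± 2554, and then of Mgst3 at 2365 ± 1094 and Gsto1 at 1913 ± 236. The intervals of 1 SD around these means overlap too. Gstm3 stood at 774 ± 324 and Sult6b2 at 65.0 ± 104 per kilobase there. In cKO distal libraries Ces2e led at 14417 ± 6699, above Mgst3 at 5445 ± 2104, Ces2a at 5329 ± 3267 and Gstp1 at 4631 ± 1586 per kilobase. At the other end, 7 members (Ces1b, Ces2f, Gsto2, Sult4a1, Sult5a1, Sult6b1 and Ugt1a6b) had a mean under 10 scaled counts over all libraries and none of them passed in any of the 6 comparisons in the fit of all libraries. Ces2f, at 6.37 on average, was lower in cKO than in WT distal libraries without cKO distal library 3 (-1.81, adjusted p = 0.0334).

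Some members share much of their sequence with another gene, which limits how firmly their reads were assigned. Of the 50-base words in Gsta1 exons, 89.7% also occur in another gene, and the shares were 64.2% for Gsta2, 72.6% for Gstp2, 62.3% for Gstp1, 42.2% for Ces2c and 41.7% for Ugt2b5. The Ugt1a genes use different first exons and share the others, so a read in the shared part belongs to no single one of them. Values of these genes are uncertain in how they divide among the copies.

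Upstream sequences of 4 members are shown because they stand for the patterns that the values below turn on. Sult6b2 and Ces2g had large differences between segments and no genotype call in the fit of all libraries. Gstk1 and Gstm3 were higher in cKO than in WT distal libraries. The sequences are RefSeq's (GRCm38.p6, the build of mm10), cut to the bases before both the RefSeq start and the first base of the GENCODE gene, and given 5′ to 3′ on the gene's strand. Capitals mark matches, on either strand, to AGATAA (a motif bound by GATA factors such as Gata4), TTTATG (bound by Cdx factors) and CAAAGTC (part of the site bound by Hnf4), and no match overlaps another in these 4. Sult6b2 (minus strand, chr6:142804503-142804716) holds AGATAA, Ces2g (plus strand, chr8:104961468-104961717) holds all 3, Gstk1 (plus strand, chr6:42245685-42245934) holds AGATAA as its reverse complement, and Gstm3 (minus strand, chr3:107969284-107969424) holds CAAAGTC.
Sult6b2: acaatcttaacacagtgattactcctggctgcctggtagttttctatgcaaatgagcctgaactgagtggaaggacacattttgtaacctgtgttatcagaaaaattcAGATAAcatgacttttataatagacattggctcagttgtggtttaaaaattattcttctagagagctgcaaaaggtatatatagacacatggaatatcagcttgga
Ces2g: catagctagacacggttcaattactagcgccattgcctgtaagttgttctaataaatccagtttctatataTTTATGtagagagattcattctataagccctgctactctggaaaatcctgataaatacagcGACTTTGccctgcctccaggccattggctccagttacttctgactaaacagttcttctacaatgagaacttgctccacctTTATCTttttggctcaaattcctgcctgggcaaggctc
Gstk1: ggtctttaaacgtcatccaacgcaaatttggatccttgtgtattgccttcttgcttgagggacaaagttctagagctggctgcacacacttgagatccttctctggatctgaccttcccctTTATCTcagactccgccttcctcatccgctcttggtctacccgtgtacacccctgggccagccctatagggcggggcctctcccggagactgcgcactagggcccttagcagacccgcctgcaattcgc
Gstm3: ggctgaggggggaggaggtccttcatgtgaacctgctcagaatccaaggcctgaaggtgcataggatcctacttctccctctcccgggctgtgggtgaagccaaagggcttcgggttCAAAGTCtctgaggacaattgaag

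RefSeq windows of 300 bases (250 before the start and 50 after) were found for 50 of the 58 members, in 62 windows. AGATAA occurred in 17.7% of these windows, against 11.2% of all 32851 windows in the table. TTTATG occurred in 16.1% against 11.9%, and CAAAGTC in 6.45% against 4.44%. The core of the antioxidant response element, TGACNNNGC, through which oxidative stress induces many of these genes, occurred in 6.45% of members' windows and 12.4% of all windows, and the GCGTG core of the aryl hydrocarbon receptor element in 21% and 32.4%. These are counts of letters in a window and say nothing of binding.

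Between the segments of WT mice, 41 of 58 members were lower distally and 0 were higher (limma on log2 of the scaled count plus 1, Benjamini-Hochberg adjusted p under 0.05 over all 17175 genes). Of all genes, 12.2% were called lower, 11.9% higher and 24.1% in either direction. The median log2 difference, distal over proximal, was -2.10 over the members and 0.04 over all genes. The WT libraries of the 2 segments did not overlap, with distal lower, for 43 members and for 18.8% of all genes. With distal higher, this held for 0 members and 19.2% of all genes. By family, 18 of 21 Gst, 2 of 3 Mgst, 9 of 11 Ugt, 3 of 9 Sult and 9 of 14 Ces genes were lower. All 41 calls held when any single library was left out. The enterocyte and the T cell marker sums given above were also lower in every WT distal than in every WT proximal library. Of the 8 enterocyte markers, Alpi (-4.0, adjusted p = 1.57e-06) and Lct (-2.48, adjusted p = 0.0135) were lower distally in WT and the other 6 did not pass, while 6 of the 8 T cell markers were lower and 1 higher. When each library was scaled to the mean of the epithelial genes Cdh1, Epcam and Vil1, an alternative chosen after seeing the data, 40 members were lower and 0 higher in WT distal libraries. On that scale 14.6% of all genes were called in either direction. What part the T cells have in the segment differences was not tested.

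Of the Gst genes, Gstm6, a mu-class enzyme, had 2118, 2129 and 1858 scaled counts in the WT proximal libraries and 62.1, 75.0 and 105 in the WT distal ones. All proximal values lay above all distal values, and the gene fell by 4.67 ± 0.23 (SE, adjusted p = 3.83e-08) on the log2 scale. Gsta2, of the alpha class that also reduces lipid hydroperoxides, went from 565, 494 and 524 to 2.44, 5.14 and 2.11, a level of a few reads. It fell by 7.03 ± 0.43 (SE, adjusted p = 2.04e-07). Gsta1 stood at 7226, 11079 and 9525 proximally and 91.3, 356 and 284 distally, and Gsta4, which conjugates hydroxynonenal from lipid peroxidation, at 6884, 9847 and 10214 and 159.5, 474 and 455. The distal values of both genes were far below every proximal value, with log2 differences of -5.44 ± 0.41 (SE, adjusted p = 7.37e-07) and -4.76 ± 0.38 (SE, adjusted p = 1.39e-06). Gstm1, Gstm2, Gstm3 and Gstm7 of the mu class and Gstt1 of the theta class fell as well, with log2 differences from -3.52 for Gstm2 to -4.69 for Gstm1. The pi-class Gstp1 fell less, by 1.22 ± 0.27 (SE, adjusted p = 0.0049), from 5044, 6562 and 5474 to 2072, 2268 and 3072. Gstp3 stood at 66.7 ± 16.5 (SD, n = 3) proximally and 71.6 ± 26.7 distally, with a log2 difference of 0.06 ± 0.30 (SE, adjusted p = 0.921).

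The largest log2 difference among the 58 was that of Sult6b2, a gene of the sulfotransferase family on the minus strand of chromosome 6 (chr6:142785204-142804502). It had 11480.5, 22724 and 32571 scaled counts in WT proximal libraries and 8.52, 399.7 and 12.6 in WT distal ones. WT distal library 2 stood far above the other WT distal libraries, and still below every proximal value. The same library had 940.3 scaled counts summed over 6 pancreatic acinar markers, against 67.0 and 81.2 in the other WT distal libraries. This sum was 356.8 to 950.7 in WT proximal, 345.4 to 613.4 in cKO proximal and 180.1 to 329.6 in cKO distal libraries. What part the acinar signal has in the Sult6b2 value was not tested. The log2 difference was -9.09 ± 0.99 (SE, adjusted p = 2.62e-05). In cKO mice the gene stood at 25685, 26547 and 26028 proximally and 28.6, 48.1 and 91.4 distally, with a log2 difference of -8.99 ± 0.99 (SE, adjusted p = 4.11e-05). Neither segment showed a genotype call for this gene (adjusted p = 0.859 proximally and 0.778 distally). Without WT distal library 2 the gene was higher in cKO than in WT distal libraries, by 2.17 (adjusted p = 0.00697). Sult1b1, which sulfates phenols and thyroid hormones, and Sult1d1 were lower distally in WT, by log2 differences of -1.48 ± 0.25 (SE, adjusted p = 0.000971) and -1.54 ± 0.28 (SE, adjusted p = 0.00161). Sult2b1, which sulfates cholesterol and hydroxysteroids, did not pass in WT (-0.70 ± 0.29 (SE, adjusted p = 0.0992)), though it did without WT distal library 3 (adjusted p = 0.00715).

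Among the glucuronosyltransferases, some were nearly absent from the WT distal segment. Ugt2b38 had 371, 694 and 701 scaled counts in WT proximal libraries and 1.22, 15.4 and 1.05 in WT distal libraries, and Ugt1a9 had 178, 62.9 and 160.1 and 6.09, 1.03 and 2.11. For each, 2 of the 3 WT distal libraries held at most a few reads. Their log2 differences were -7.07 ± 0.72 (SE, adjusted p = 1.43e-05) and -5.11 ± 0.60 (SE, adjusted p = 4.53e-05). Ugt2b34, the Ugt gene with the highest level per kilobase, fell by 2.04 ± 0.31 (SE, adjusted p = 0.000373), from 16654 ± 3736 to 4214 ± 1787 (SD, n = 3). Ugt1a7c gave -2.92 ± 0.22 (SE, adjusted p = 6.8e-07) and Ugt2b35 gave -3.61 ± 0.30 (SE, adjusted p = 1.66e-06). Among carboxylesterases, Ces2g went from 2642, 2046 and 2254 to 108, 109 and 56.9 and Ces2b from 3778, 1711 and 1489 to 49.9, 59.6 and 115, with no overlap in either case. Ces2g fell by 4.70 ± 0.31 (SE, adjusted p = 2.9e-07) and Ces2b fell by 4.91 ± 0.41 (SE, adjusted p = 1.77e-06). Ces1f, a triacylglycerol hydrolase of the endoplasmic reticulum, fell by 3.32 ± 0.25 (SE, adjusted p = 8.01e-07). Ces2e and Ces2a, the members highest per kilobase in WT distal libraries, did not pass (-1.11 ± 0.43 (SE, adjusted p = 0.0768) and -1.32 ± 0.52 (SE, adjusted p = 0.0828)). WT distal library 3 held 14297 scaled counts of Ces2a, against 4626 and 3240.1 in the others, and without it both genes passed (adjusted p = 0.00947 for Ces2e and 0.00658 for Ces2a). With the replicate number as a block they also passed (adjusted p = 0.0494 and 0.0303).

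**Figure D2:**
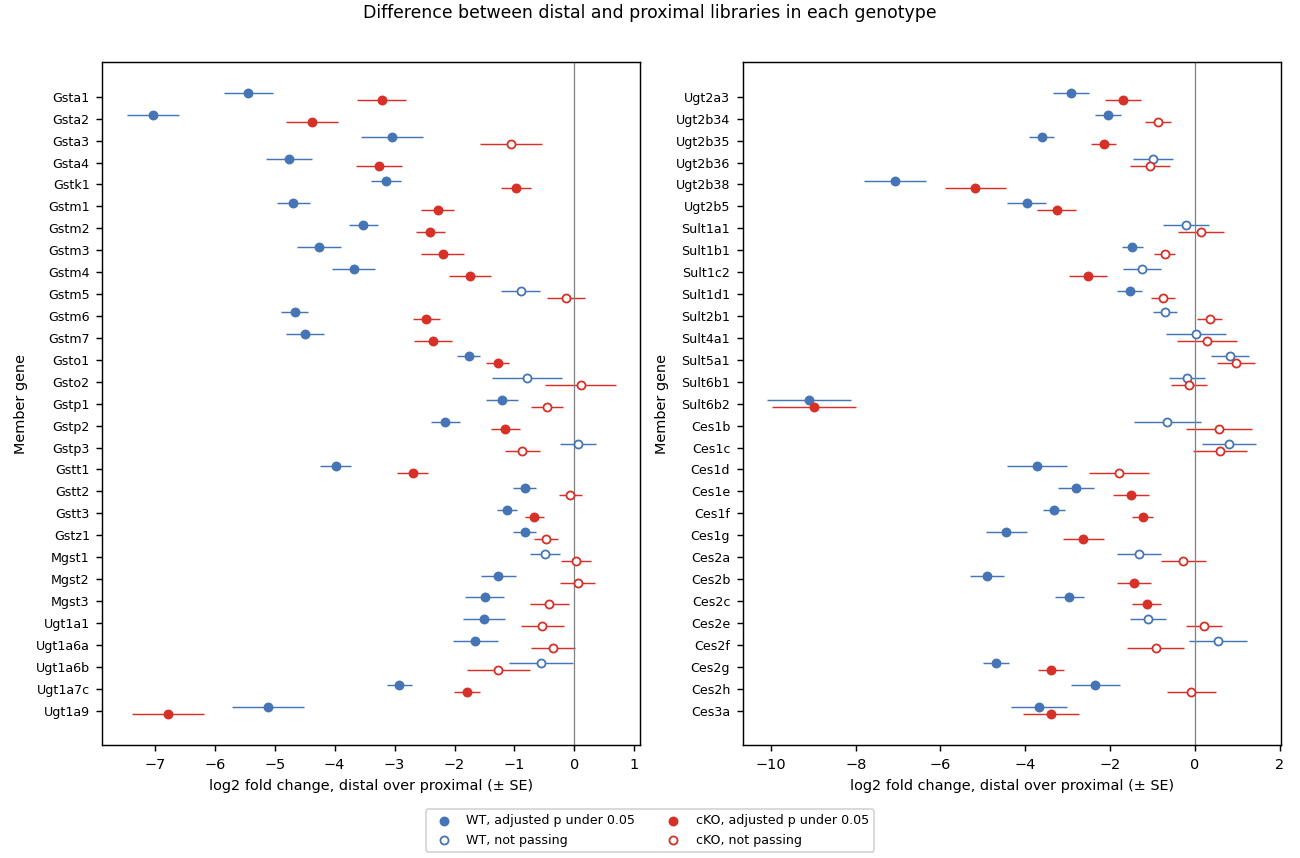
Log2 fold change of each of the 58 members, distal over proximal (x axis, ± SE), in WT (blue) and cKO (red) libraries, 3 per group; filled points passed the adjusted p threshold of 0.05. No filled point lies above 0, and the red points of most Gst genes lie nearer to 0 than the blue ones.

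In cKO mice, 29 of 58 members were lower distally than proximally and 0 were higher, where 6.36% of all genes were called lower, 4.16% higher and 10.5% in either direction. The median log2 difference was -1.10 over the members and -0.02 over all genes. The 29 were 14 Gst, 6 Ugt, 2 Sult and 7 Ces genes, and none of the 3 Mgst genes passed. The Mgst differences were 0.02 ± 0.25 (SE, adjusted p = 0.974) for Mgst1, 0.06 ± 0.29 (SE, adjusted p = 0.939) for Mgst2 and -0.42 ± 0.33 (SE, adjusted p = 0.473) for Mgst3. Ugt1a9 gave -6.77 ± 0.60 (SE, adjusted p = 5.7e-06), with 391, 415 and 418 scaled counts in cKO proximal and 8.48, 1.66 and 1.06 in cKO distal libraries. Ces2g gave -3.40 ± 0.31 (SE, adjusted p = 6.96e-06), and Gsta2 gave -4.38 ± 0.43 (SE, adjusted p = 1.54e-05). Gsta4 gave -3.26 ± 0.38 (SE, adjusted p = 6.86e-05) and Gstm6 gave -2.47 ± 0.23 (SE, adjusted p = 7.41e-06). Of the 29 calls, 23 held without any single library. Gstk1 lost its call without cKO distal library 2 (0.0764) or 3 (0.0883) or cKO proximal library 1 (0.0637) or 2 (0.0824), Gstt3 without cKO distal library 2 (0.0639) or 3 (0.0586) or cKO proximal library 1 (0.0691) or 2 (0.0699) and Ugt2a3 without cKO distal library 2 (0.0893) or 3 (0.0665) or cKO proximal library 1 (0.0758) or 2 (0.0612). Ces1e lost it without cKO distal library 1 (0.0671) or 2 (0.15) or cKO proximal library 1 (0.12), 2 (0.109) or 3 (0.0623), Ces2b without WT distal library 2 (0.0501), cKO distal library 2 (0.0946) or 3 (0.144) or cKO proximal library 1 (0.149), 2 (0.0702) or 3 (0.0686), and Ces2c without WT distal library 2 (0.0645), WT proximal library 2 (0.053) or 3 (0.0594), cKO distal library 2 (0.176) or 3 (0.0802) or cKO proximal library 1 (0.119), 2 (0.0801) or 3 (0.148).

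In the distal segment, 32 of 58 members were higher in cKO than in WT libraries and 0 were lower. Of all genes, 13.3% were called higher, 11.7% lower and 25% in either direction. The median log2 difference was 1.16 over the members and 0.06 over all genes. The distal libraries of the 2 genotypes did not overlap, with cKO higher, for 31 members and for 18.9% of all genes. With cKO lower, this held for 1 member and 15.9% of all genes. The Gst genes made up most of the calls, with 17 of 21 higher. The differences of 4 of these 17 (Gsto1, Gstt1, Gstt3 and Gstz1) turned negative when libraries were scaled to epithelial genes, as described below. Of the 17, only Gsta1, Gsta2, Gstk1, Gstm6 and Gstm7 passed as higher on that scale. The other calls in the fit of all libraries were 3 of 3 Mgst, 6 of 11 Ugt and 6 of 14 Ces genes. None of the 9 Sult genes passed, and 1 of them had an unadjusted p under 0.05. The proximal and distal genotype comparisons use different libraries, but each distal group is shared with the segment comparison of its genotype.

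Gstm6 had 62.1, 75.0 and 105 scaled counts in WT distal and 527, 314 and 383 in cKO distal libraries. Every cKO value was above every WT value, and the log2 difference was 2.32 ± 0.23 (SE, adjusted p = 2.22e-05). Gsta1 went from 91.3, 356 and 284 to 1746, 1135 and 2082, with no overlap and a log2 difference of 2.93 ± 0.41 (SE, adjusted p = 0.000198). Gsta2 went from 2.44, 5.14 and 2.11 to 23.3, 12.4 and 56.4, also without overlap, and rose by 2.72 ± 0.43 (SE, adjusted p = 0.000559). Gstk1, the kappa-class enzyme of mitochondria and peroxisomes, went from 175, 284 and 301 to 1334, 838 and 660.3. The lowest cKO library had more than the highest WT library here too, and the gene rose by 1.87 ± 0.25 (SE, adjusted p = 0.00015). Gstm7, Gstm3 and Gstm1 rose by 2.23 ± 0.32 (SE, adjusted p = 0.000245), by 1.69 ± 0.36 (SE, adjusted p = 0.00425) and by 1.52 ± 0.27 (SE, adjusted p = 0.00135). Gstp1, the pi-class enzyme, stood at 2072, 2268 and 3072 in WT and 9744, 6909.9 and 4853 in cKO libraries and rose by 1.50 ± 0.27 (SE, adjusted p = 0.00124). Gstt2 of the theta class rose by 1.30 ± 0.19 (SE, adjusted p = 0.000325). The 4 Gst genes that did not pass were Gstm2 (0.69 ± 0.25 (SE, adjusted p = 0.0549)), Gstm4 (0.74 ± 0.35 (SE, adjusted p = 0.145)), Gstp3 (0.77 ± 0.30 (SE, adjusted p = 0.0751)) and Gsto2 (0.56 ± 0.59 (SE, adjusted p = 0.527)). Gstm2 passed without WT distal library 3 (0.0122), cKO distal library 3 (0.0455) or cKO proximal library 2 (0.0395) or 3 (0.0358), and Gstp3 without WT distal library 3 (0.0246).

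The microsomal enzymes are membrane proteins unrelated in sequence to the cytosolic ones. Mgst1, which also acts as a lipid peroxidase, had 1252, 1128 and 1771 scaled counts in WT distal and 7151, 4119 and 4785 in cKO distal libraries, with no overlap. It rose by 1.94 ± 0.25 (SE, adjusted p = 0.000115). Mgst2, which can make cysteinyl leukotrienes, went from 1065, 892 and 1997 to 7416, 3991 and 5580.2 and rose by 2.15 ± 0.29 (SE, adjusted p = 0.000172). Mgst3 stood at 2113, 1709 and 3960.4 and 8154, 3556 and 6209, where WT distal library 3 lay above cKO distal library 2, and rose by 1.22 ± 0.33 (SE, adjusted p = 0.0146). The Mgst3 call ended without WT distal library 1 (adjusted p = 0.0575), WT distal library 2 (0.0805) or cKO distal library 1 (0.079).

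Among the glucuronosyltransferases, Ugt1a7c had 437, 448 and 566 scaled counts in WT distal and 2195, 1592 and 1628 in cKO distal libraries and rose by 1.89 ± 0.22 (SE, adjusted p = 5.57e-05). Ugt2b35 rose by 1.59 ± 0.30 (SE, adjusted p = 0.00169), Ugt1a6a by 1.68 ± 0.37 (SE, adjusted p = 0.00484), Ugt2a3, which glucuronidates bile acids, by 1.88 ± 0.43 (SE, adjusted p = 0.00597), and Ugt2b34 by 1.28 ± 0.31 (SE, adjusted p = 0.0082). The groups did not overlap for any of these. Ugt1a1, the enzyme that glucuronidates bilirubin, had 32.9, 50.4 and 82.2 and 225, 95.4 and 114 and rose by 1.37 ± 0.36 (SE, adjusted p = 0.0127). Its call ended without WT distal library 1 (adjusted p = 0.0593) or cKO distal library 1 (0.0741). Ugt2b5 and Ugt2b36 gave 0.60 ± 0.46 (SE, adjusted p = 0.375) and 1.17 ± 0.47 (SE, adjusted p = 0.0815), and both passed without cKO distal library 3 (adjusted p = 0.0403 and 0.0111). Ugt2b36 also passed without WT distal library 3 (adjusted p = 0.0261). Ugt1a9 and Ugt2b38, which were nearly absent from WT distal libraries, stayed at 8.48, 1.66 and 1.06 and 1.06, 0.830 and 5.32 in cKO distal ones.

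Carboxylesterases of the Ces1 and Ces2 subfamilies were among the genes that rose. Ces1f had 377, 377 and 719 scaled counts in WT distal and 2759, 1994 and 2379 in cKO distal libraries, without overlap, and rose by 2.33 ± 0.25 (SE, adjusted p = 4.09e-05). Ces2e went from 6260.1, 5621 and 15924 to 59568, 25952 and 31217 and rose by 2.14 ± 0.43 (SE, adjusted p = 0.0027). All cKO libraries were above all WT libraries, WT distal library 3 being the nearest. Ces2c, which hydrolyses acylglycerols, went from 2111, 2295 and 4407 to 12791, 6376 and 9804 and rose by 1.74 ± 0.34 (SE, adjusted p = 0.00222). Ces1d, a lipase of the endoplasmic reticulum, had 8.52, 10.3 and 37.9 and 231, 91.3 and 229 and the largest log2 difference of the 58, 3.40 ± 0.71 (SE, adjusted p = 0.00346). Ces1g rose by 2.27 ± 0.49 (SE, adjusted p = 0.00429). Ces2a (0.91 ± 0.52 (SE, adjusted p = 0.227)) and Ces2b (adjusted p = 0.0876) did not pass, and both did without WT distal library 3 (adjusted p = 0.0193 and 0.023). Ces2b also passed without cKO distal library 3 (adjusted p = 0.0312).

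In the fit of all libraries, the sulfotransferases of the distal segment gave log2 differences from -0.70 to 0.63. Sult6b2 was higher in cKO by 2.17 (adjusted p = 0.00697) without WT distal library 2, as given above. Sult1b1 stood at 2231, 3339 and 3377 in WT and 5144, 3813 and 2436 in cKO libraries, with overlapping values and a log2 difference of 0.31 ± 0.25 (SE, adjusted p = 0.41). Sult1d1 gave 0.63 ± 0.28 (SE, adjusted p = 0.124), and it passed without cKO distal library 3 (adjusted p = 0.0111). Sult2b1 gave 0.38 ± 0.29 (SE, adjusted p = 0.374), and it passed without WT distal library 3 (adjusted p = 0.0368). Sult1c2 had the only negative difference with groups that did not overlap (-0.70 ± 0.44 (SE, adjusted p = 0.274)). Of all genes, 15.9% had non-overlapping lower values in this comparison.

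Of the 8 enterocyte markers, 3 were themselves higher in cKO than in WT distal libraries and 0 lower. They were the epithelial adhesion genes Cdh1 (1.69 ± 0.33 (SE, adjusted p = 0.00246)) and Epcam (0.97 ± 0.33 (SE, adjusted p = 0.0459)) and the disaccharidase Sis (1.78 ± 0.49 (SE, adjusted p = 0.0168)). Vil1, of the brush border (0.34 ± 0.38 (SE, adjusted p = 0.559)), Lct (1.43, adjusted p = 0.128), Fabp2 (0.49, adjusted p = 0.474), Alpi (-0.05, adjusted p = 0.932) and Krt20 (0.00, adjusted p = 0.998) did not pass. Cdh1 stood at 4063, 3944 and 8073 in WT and 22981, 12791 and 14670.3 in cKO. When each library was scaled to the mean of Cdh1, Epcam and Vil1, the median over all genes became -0.94 and that over the members 0.16. On that scale 14 members were higher and 4 (Ces2f, Sult1b1, Sult1c2 and Sult2b1) lower. Of all genes, 50.2% were called in either direction there, against 25% without that scaling. The differences of 20 members changed from positive to negative, among them Gsto1 (-0.40), Sult1b1 (-0.69) and Sult2b1 (-0.62). Gstm6, Gstm7, Gstk1, Gsta1, Gsta2, Mgst1, Mgst2, Ugt1a7c, Ugt2a3, Ces1d, Ces1f, Ces1g, Ces2c and Ces2e stayed higher. With the mitochondrial share of each library as a covariate, 17 members were higher and 0 lower, where 7.9% of all genes were called. What part the makeup has in the genotype differences was not tested.

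A further 5 distal calls each ended when 1 library was left out, with the adjusted p given in parentheses. Ces1e lost its call without WT distal library 1 (0.0765) or 2 (0.0671) or cKO distal library 1 (0.0618) or 3 (0.0559), and Gstt1 without WT distal library 1 (0.0646) or cKO distal library 1 (0.0772). Gsto1 lost it without WT distal library 1 (0.107) or 2 (0.0634), cKO distal library 1 (0.115) or 2 (0.0801) or cKO proximal library 1 (0.0507). Gsta3, whose cKO distal values were 95.4, 137 and 618, lost it without WT distal library 1 (0.161) or 2 (0.121), WT proximal library 1 (0.0521), 2 (0.0574) or 3 (0.0577), cKO distal library 3 (0.132) or cKO proximal library 1 (0.0542), 2 (0.0581) or 3 (0.0575). Gstz1, the enzyme of tyrosine breakdown, lost it without WT distal library 1 (0.117), 2 (0.113) or 3 (0.0542), WT proximal library 1 (0.0533), 2 (0.0646) or 3 (0.0647), cKO distal library 1 (0.205) or 2 (0.134) or cKO proximal library 1 (0.0665) or 2 (0.0576). Together with Mgst3 and Ugt1a1 these are the calls that ended, and 25 of the 32 held without any single library.

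**Figure D3:**
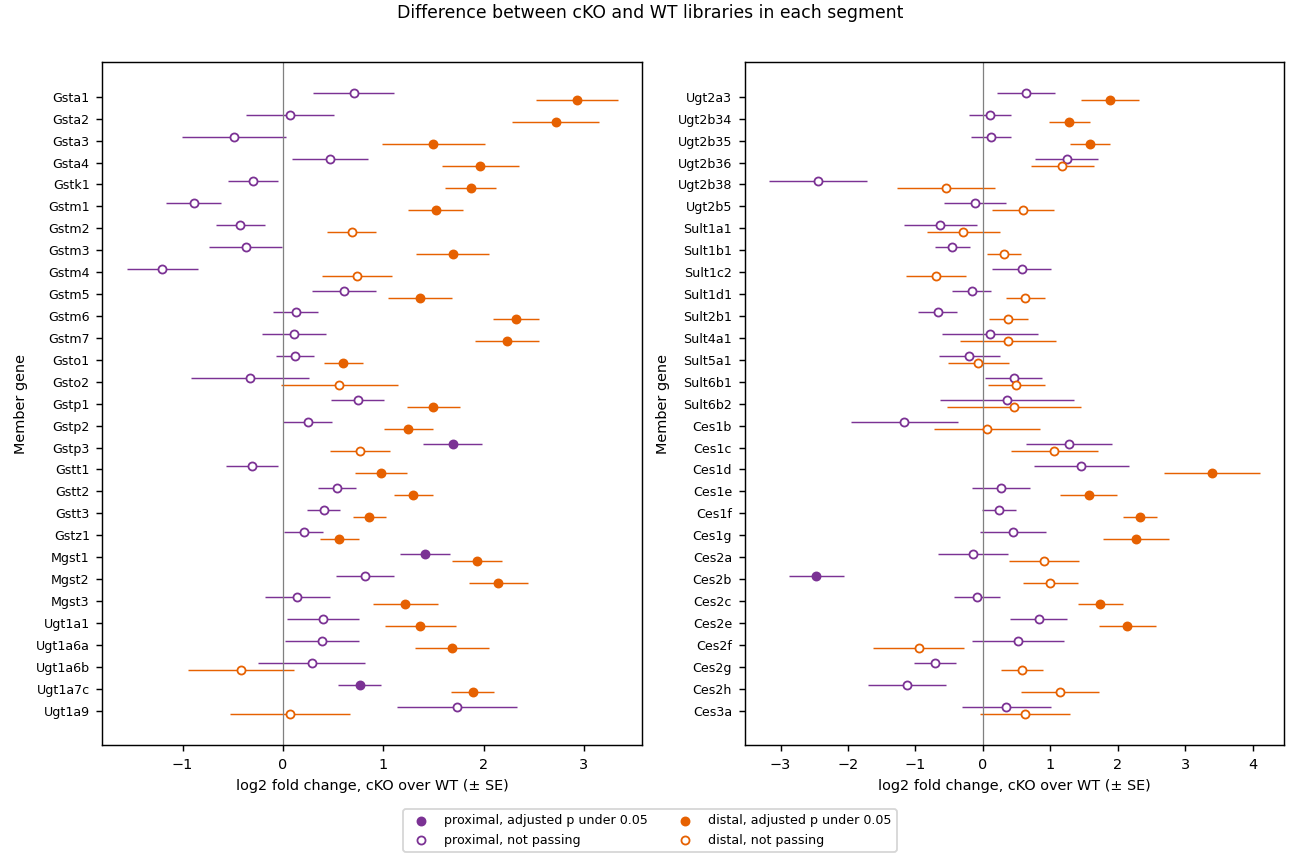
Log2 fold change of each member, cKO over WT (x axis, ± SE), in the proximal (purple) and distal (orange) segment, 3 libraries per group; filled points passed the adjusted p threshold of 0.05. Most orange points lie right of 0, 32 of them filled, while 4 purple points are filled, 3 to the right and 1 to the left. Scaled to Cdh1, Epcam and Vil1, the filled distal points would be 14 to the right and 4 to the left. On that scale 50.2% of all genes were called in the distal segment, against 25% in the fit shown.

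In the proximal segment, 3 members were higher and 1 was lower in cKO than in WT libraries, where 8.26% of all genes were called in either direction, 4.21% higher and 4.05% lower. The members' share is close to that of all genes. The median log2 difference was 0.17 over the members and 0.08 over all genes. The proximal libraries of the 2 genotypes did not overlap, with cKO higher, for 16 members and for 20.6% of all genes. With cKO lower, this held for 8 members and 13.3% of all genes. Ces2b had 3778, 1711 and 1489 scaled counts in WT proximal and 497, 346 and 325 in cKO proximal libraries, with no overlap. The log2 difference was -2.47 ± 0.41 (SE, adjusted p = 0.00307), and the call held in every alternative and without any single library. Mgst1 went from 1579.6, 1799 and 2472 to 5209, 4252 and 6052, without overlap, and rose by 1.42 ± 0.25 (SE, adjusted p = 0.00457). Gstp3, a pi-class gene, went from 53.7, 85.3 and 61.3 to 223, 215 and 203 and rose by 1.69 ± 0.30 (SE, adjusted p = 0.00455). Both calls ended with the mitochondrial share as a covariate (adjusted p = 0.0633 and 0.0542), and that of Gstp3 also on the epithelial scale (0.075).

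Ugt1a7c stood at 4783, 2703 and 3727 in WT proximal and 5433, 6936 and 6274 in cKO proximal libraries and rose by 0.76 ± 0.22 (SE, adjusted p = 0.0441). This call did not pass in edgeR (adjusted p = 0.0714). Nor did it pass on the epithelial scale or with the mitochondrial share as a covariate. Under that covariate 0 members were called higher, where 1.7% of all genes were called in either direction. It also ended without WT distal library 2 (0.0575), WT proximal library 2 (0.186) or 3 (0.1), cKO distal library 2 (0.0552), and any of the cKO proximal libraries (0.0687, 0.156 and 0.11). Another 4 genes given here came close to the threshold without passing it in the fit of all libraries. Gstm4 gave -1.20 ± 0.35 (SE, adjusted p = 0.0505), Ugt2b38 -2.44 ± 0.72 (SE, adjusted p = 0.0531), Gstm1 -0.89 ± 0.27 (SE, adjusted p = 0.061) and Ugt1a9 1.74 ± 0.60 (SE, adjusted p = 0.0896). Ugt2b38 had 371, 694 and 701 scaled counts in WT and 71.7, 182 and 83.9 in cKO proximal libraries, which do not overlap. Ugt1a9 had 178, 62.9 and 160.1 and 391, 415 and 418, also apart. In edgeR, Gstm4 (0.0305), Ugt2b38 (0.0295) and Gstm1 (0.0369) passed. In limma, Gstm4 passed without WT distal library 1 (0.0492) or 3 (0.0454), WT proximal library 3 (0.0231) or cKO proximal library 2 (0.0283), Gstm1 without WT proximal library 3 (0.025), Ugt2b38 without WT distal library 2 (0.0176) or 3 (0.0371) or cKO distal library 3 (0.0408) and Ugt1a9 without cKO distal library 1 (0.0493). Mgst2 had 3816, 2767 and 2539 in WT and 5349, 5839 and 4699 in cKO proximal libraries, a log2 difference of 0.82. It did not pass in the fit of all libraries, but did without WT distal library 3 (0.0417). Ces1d did not pass either, but did without WT proximal library 3 (2.36, adjusted p = 0.044). The balance of the calls depended on the scaling: edgeR and limma with TMM factors both gave 2 higher and 4 lower, and the epithelial scale 1 higher and 3 lower. Of all genes, 7.51% were called in edgeR, 8.31% with TMM factors and 3.63% on the epithelial scale.

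Whether the genotype difference was unequal between the segments was tested by the interaction of genotype and segment. It passed for 5 members, all with a larger log2 difference (cKO over WT) distally, and for none in the other direction, where 0.576% of all genes were called in either direction, 0.175% in the direction of the members and 0.402% in the other. The median interaction was 1.09 over the members and -0.00 over all genes. Ces2b had the largest value, 3.47 ± 0.57 (SE, adjusted p = 0.0203): as given above, it was lower in cKO than in WT libraries proximally and stood at 49.9, 59.6 and 115 in WT and 232, 137 and 88.3 in cKO libraries distally. Gstm1 gave 2.41 ± 0.39 (SE, adjusted p = 0.0186), with 13885, 12777 and 7192 in WT and 4740.3, 7180.0 and 5901 in cKO proximal libraries and 341, 561 and 384 and 1178, 971 and 1524 in the distal ones. The order of the genotypes was thus opposite in the 2 segments for Gstm1, though its proximal difference did not pass. Gstm6 gave 2.19 ± 0.32 (SE, adjusted p = 0.015), Gstk1 2.16 ± 0.35 (SE, adjusted p = 0.0186) and Ces1f 2.09 ± 0.35 (SE, adjusted p = 0.0217). For these 3 genes the proximal groups overlapped and the distal ones did not. For Mgst1, which rose in both segments, the interaction was 0.52 ± 0.35 (SE, adjusted p = 0.567).

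The interaction calls rest on few libraries. Without the cKO libraries numbered 1 of both segments, limma called 0 members, with 22 at an unadjusted p under 0.05, while edgeR called 6 and DESeq2 called 17 members with all libraries. With the replicate number as a block, 10 members passed. The share of all genes called also moved with the setting. It was 0.0116% without those cKO libraries, 0.344% in edgeR and 2.68% with the block. In DESeq2 it was 4.2% of the genes given an adjusted p. The Gstm6 call ended without WT distal library 2 (adjusted p = 0.0505), and that of Ces2b without WT distal library 2 (0.0735) or cKO distal library 1 (0.0555). Gstm1 lost its call without WT proximal library 1 (0.0501) or 2 (0.0518), cKO distal library 1 (0.0555) or cKO proximal library 1 (0.0554). Gstk1 lost it without any of these 4 (0.0504, 0.0525, 0.051 and 0.0554) or WT distal library 2 (0.0505). Ces1f lost it without WT distal library 2 (0.082), WT proximal library 1 (0.0588), cKO distal library 1 (0.064), or cKO proximal library 1 (0.0706) or 3 (0.0537).

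**Figure D4:**
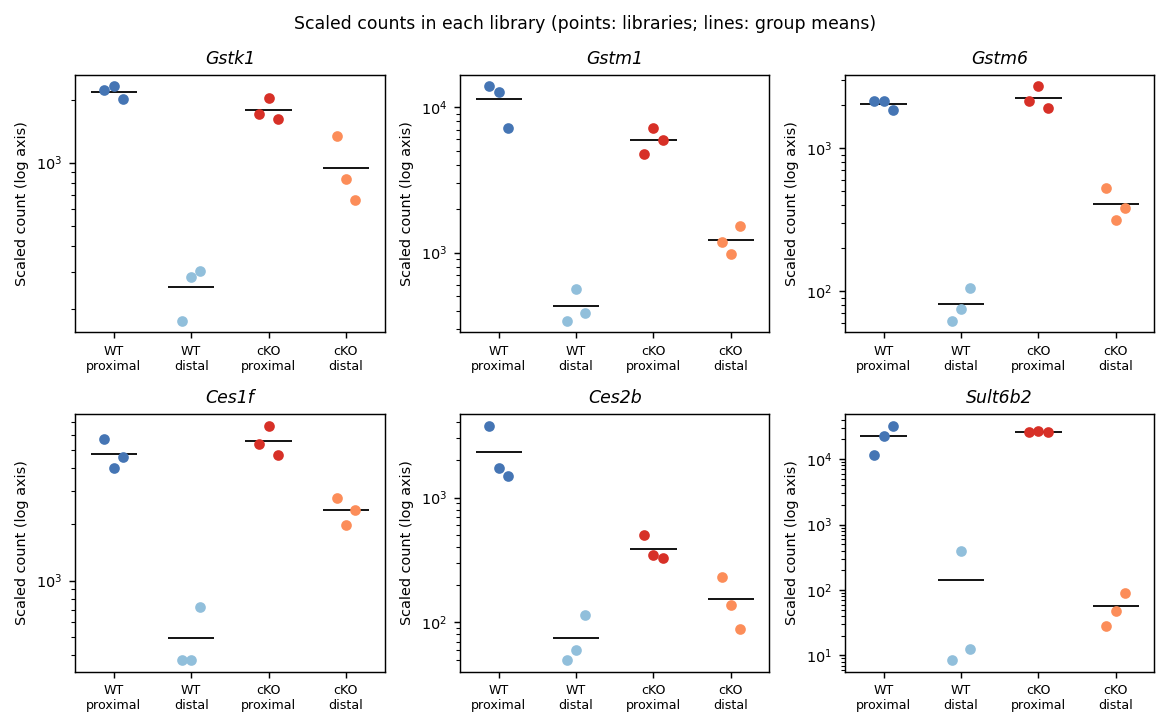
Scaled counts (log y axis) of Gstk1, Gstm1, Gstm6, Ces1f, Ces2b and Sult6b2 in the 12 libraries, by group (x axis); points are libraries and lines are group means. The first 5 are the genes whose genotype difference was unequal between segments, and Sult6b2 shows the difference between segments with its WT distal library 2 at 399.7, apart from the other 2.

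How far the cKO distal levels were from those of the WT proximal segment was compared directly, a comparison in which genotype and segment change together. In cKO distal libraries 30 members were lower and 3 higher than in WT proximal libraries, where 26% of all genes were called, 13% in each direction. The median log2 difference was -1.01 over the members and 0.04 over all genes. The 30 were 14 Gst, 5 Ugt, 4 Sult and 7 Ces genes. Some genes that rose distally with the cKO genotype were among these 30 and so stood below their WT proximal level. Examples were Gstm6 (-2.35 ± 0.23 (SE, adjusted p = 9.54e-06)), Gsta1 (-2.51 ± 0.41 (SE, adjusted p = 0.000607)), Gstk1 (-1.27 ± 0.25 (SE, adjusted p = 0.00225)) and Ces1f (-0.99 ± 0.25 (SE, adjusted p = 0.0101)). Others that rose, such as Ugt2a3, Ugt2b34 and Ces2e, were not called in this comparison. The 30 also held genes without a distal genotype call, the 4 Sult genes among them. The 3 higher genes were Mgst1 (1.44 ± 0.25 (SE, adjusted p = 0.000991)), Mgst2 (0.87 ± 0.29 (SE, adjusted p = 0.0405)) and Ces1c (1.86 ± 0.64 (SE, adjusted p = 0.0457)).

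Only the Mgst1 call held without any single library. That of Mgst2 ended without WT proximal library 2 (0.115) or 3 (0.132), cKO distal library 1 (0.157) or 3 (0.0791), or any cKO proximal library (0.0503 to 0.0551). That of Ces1c ended in 7 of the 12 such fits, with an adjusted p of 0.189 without cKO distal library 3, which held 179.7 scaled counts against 58.3 and 29.9 in the others. Among the 30 lower genes, Ces1e, Ces2c, Gsta3, Gstp2 and Sult1d1 each lost the call in 2 to 9 of the 12 fits that left out a library, and 26 of the 33 calls held in all 12. Ces2c lost it without WT proximal library 1 (0.0633) or cKO distal library 2 (0.0807), Gstp2 without WT proximal library 2 (0.0561) or cKO distal library 3 (0.0568) and Sult1d1 without WT proximal library 2 (0.108) or 3 (0.0902) or cKO distal library 3 (0.109). On the epithelial scale 0 members were higher and 40 lower. Of all genes, 38.3% were called in either direction on that scale, and their median log2 difference was -0.76.

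**Figure D5:**
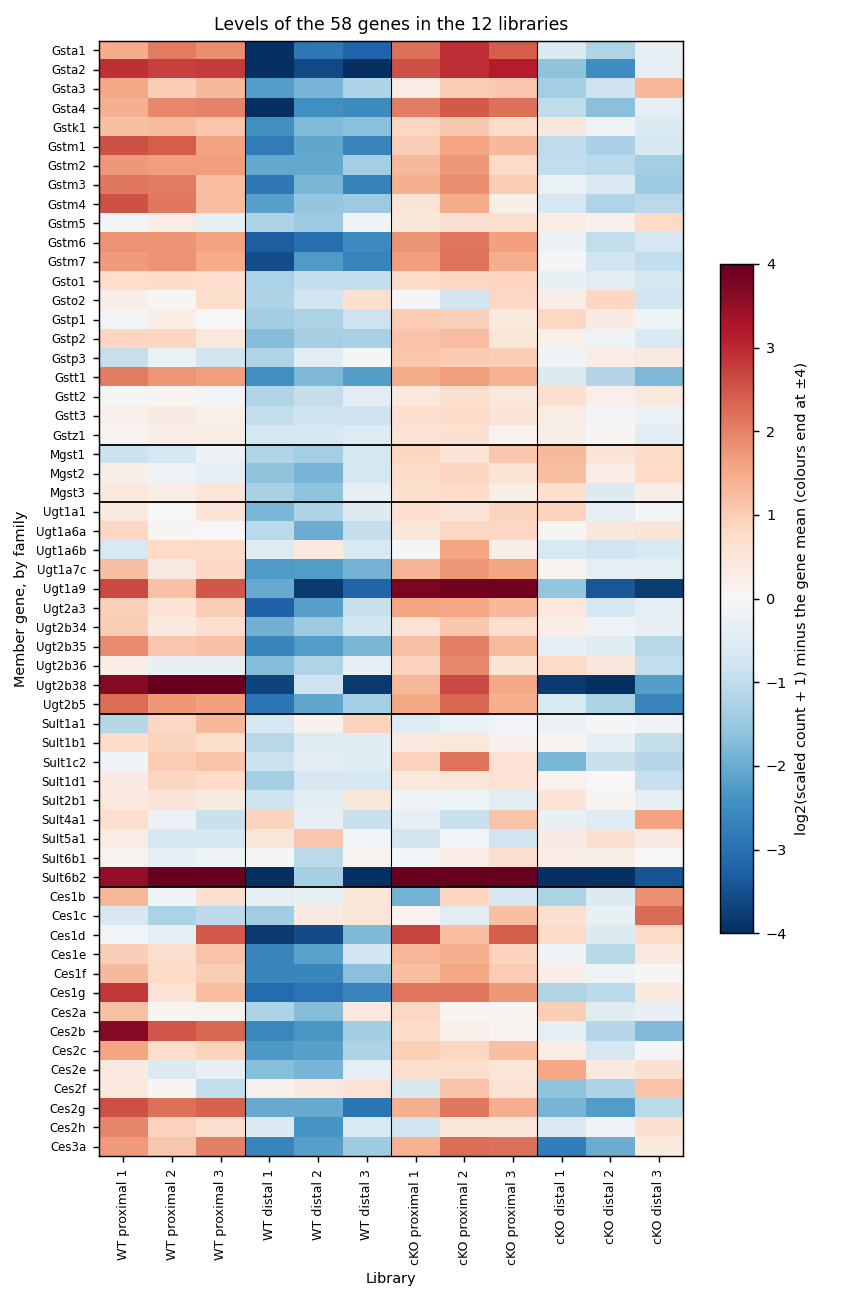
Level of each of the 58 members (rows, by family) in each of the 12 libraries (columns), as log2 of the scaled count plus 1 minus the gene's mean, with colours ending at ±4. The WT distal columns are blue for nearly all Gst genes, the cKO distal columns are paler, and most Sult genes other than Sult6b2 vary little.

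Genes that supply or accompany these enzymes were counted from 6 lists. Of 46 measured enzymes of the first phase of drug metabolism, which oxidise, reduce or hydrolyse compounds before conjugation, 27 were higher and 1 lower in cKO than in WT distal libraries, and 33 were lower and 3 higher distally than proximally in WT. Aldh1a1, a retinal dehydrogenase, had 1432, 1772 and 1898 scaled counts in WT distal and 7151, 6233 and 5477 in cKO distal libraries, and rose by 1.89 ± 0.20 (SE, adjusted p = 3.4e-05). Aadac, a microsomal deacetylase of arylamides and esters, had 48.7, 79.1 and 138 and 1074, 431 and 725 and rose by 3.08 ± 0.36 (SE, adjusted p = 5.62e-05). No distal library of one genotype overlapped the other for either gene. Of 16 genes that make or carry UDP-glucuronate or the sulfate donor PAPS, 11 were higher and 1 lower in cKO distal libraries. Papss2, which makes PAPS, fell by 4.98 ± 0.33 (SE, adjusted p = 2.9e-07) from WT proximal to WT distal libraries, from 36750.5, 59228 and 70389.7 to 1097, 2730.4 and 1639 scaled counts. Ugdh, which makes UDP-glucuronate, fell by 2.66 ± 0.19 (SE, adjusted p = 5.69e-07).

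Of 18 genes of glutathione supply, 8 were higher and 0 lower in cKO distal libraries. Gsr, glutathione reductase, had 2958, 2501 and 2212 scaled counts in WT distal and 5551, 5319 and 4067 in cKO distal libraries and rose by 0.96 ± 0.17 (SE, adjusted p = 0.00112), without overlap. Proximally, Gclc, the catalytic subunit of the enzyme that limits glutathione synthesis, fell by 1.34 ± 0.29 (SE, adjusted p = 0.0146) in cKO libraries. Of 19 transporters, 11 were higher and 0 lower in cKO distal libraries. Abcc3, an efflux pump of glucuronides, had 765, 712 and 1228 scaled counts in WT distal and 5624, 2414 and 3877 in cKO distal libraries and rose by 2.10 ± 0.32 (SE, adjusted p = 0.000374). Of 18 oxidative stress response genes, 3 were higher and 0 lower there. Of 19 regulators, 5 were higher and 0 lower. Nr1i3, the nuclear receptor CAR that induces conjugating enzymes, had 8.52, 23.6 and 29.5 scaled counts in WT distal and 105, 108 and 46.8 in cKO distal libraries and rose by 2.09 ± 0.41 (SE, adjusted p = 0.00237). Gata4, a transcription factor of the proximal small intestine, fell by 2.33 ± 0.23 (SE, adjusted p = 1.19e-05) from WT proximal to WT distal libraries and fell by 1.83 ± 0.23 (SE, adjusted p = 0.000153) in cKO mice. It was higher in cKO than in WT distal libraries, by 0.82 ± 0.23 (SE, adjusted p = 0.0201), and did not pass proximally (0.33, adjusted p = 0.418). Of the 4 listed proximal markers, 1 was higher and 0 were lower in that distal comparison. For these counts, the shares of all genes were 13.3% higher and 11.7% lower in the distal genotype comparison and 12.2% lower and 11.9% higher in the WT segment comparison. No list was tested as a set.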

How the data were processed

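Per the labels' protocols, Trizol served to extract total RNA, and cDNA libraries came from NuGEN's Ovation kit. Reads were aligned to mm10 with STAR and analysed with DESeq2 1.28.1, per the submitters' processing notes. The sample values the authors deposited are a signal scaled per library: each of the 206100 values is a whole multiple of its column's step within 0.001 steps, and was taken as (reads + 1) divided by a size factor. The deposited table also gives the authors' log2 fold change with its error, a Wald score and p-values, for a comparison not used here. All 12 sample columns were matched by name.

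In R 4.3.3, limma 3.58.1 (trended empirical Bayes) compared the 4 groups on log2 of the value plus 1, fitting all 12 libraries together, with Benjamini-Hochberg adjusted p under 0.05 over 17175 genes. A filter (value of at least 1 in 3 libraries) removed 0 genes. Fold changes of low genes are understated on this scale. edgeR 4.0.16 and DESeq2 1.42.0 were run on reads recovered from the steps, where 100% of values came out whole. The other alternatives were TMM factors, a pseudocount of 8, a mean of at least 10, a 2-fold minimum, the mitochondrial share as a covariate, the replicate number as a block, each library left out, and the epithelial scale. The tests were checked on simulated data.

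Sample names in the labels recur between the segments of a genotype (WT1, KO1). Same-numbered libraries deviated together there, with correlations of 0.314, 0.173 and 0.308 in WT and 0.158, 0.215 and 0.323 in cKO. The numbers were therefore taken to pair the segments, and not the genotypes, though the correlations are modest. The fit behind the calls given above left this pairing out. With the pairing as a block, 45 members passed between segments in WT, 32 in cKO and 10 in the interaction, against 41, 29 and 5. The shares of all genes called were 28.7%, 15.1% and 2.68% with the block, against 24.1%, 10.5% and 0.576%.

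The members and gene lists were chosen with earlier results of these data known. Candidates for naming in each comparison were up to 8 members with the smallest p of Gst, Ugt, Sult and Ces and up to 3 of Mgst. The 3 highest members of each family and up to 3 genes of each list were added. Only part of these candidates are given, as in the proximal genotype comparison. Other members named were singled out after their values were seen. Gene length and position are from GENCODE M21. Upstream sequences are from RefSeq.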

Additional observations from a re-analysis of the deposited data

Results flagged for a closer look

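For 5 genes the difference between cKO and WT libraries was unequal in the 2 segments by the test of the interaction (limma), always with a larger log2 difference distally. The interaction was 2.09 for Ces1f (adjusted p = 0.0217), 3.47 for Ces2b (0.0203), 2.16 for Gstk1 (0.0186), 2.41 for Gstm1 (0.0186) and 2.19 for Gstm6 (0.015). For Ces2b the proximal difference passed and the distal one did not, and for the other 4 the distal difference passed and the proximal one did not. Each call ended when some single library was left out, as given with the values. Groups of 3 libraries were not screened for single outlying samples.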

How the results depend on the processing

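Directions of the counts of called members held in both segment comparisons under the 23 alternatives run: no member was called higher distally. Leaving out each library in turn gave 41 to 45 calls in WT and 23 to 30 in cKO, and 28 to 37 calls for cKO distal against WT proximal. For the distal genotype comparison (32 calls) the range was 25 to 37, with 17 under the mitochondrial covariate and 18 on the epithelial scale. The shares of all genes called there were 7.9% and 50.2%. On the epithelial scale 4 called members turned negative, namely Gsto1 (-0.40), Gstt1, Gstt3 and Gstz1. Sult1b1 (-0.69) and Sult2b1 (-0.62), not called before, were called lower there. For the proximal genotype comparison (4 calls) the range was 3 to 7, with 9 under DESeq2 and 1 under the mitochondrial covariate. The shares of all genes were 15.3% (of those with an adjusted p) and 1.7%. For the interaction (5 calls) the range was 1 to 9, with 17 under DESeq2, 3 on the epithelial scale, 10 with the replicate block, 11 with the block by duplicateCorrelation and 0 without both cKO libraries numbered 1 (22 at an unadjusted p under 0.05 in limma). In the same order, the shares of all genes called were 4.2% (of those with an adjusted p), 1.18%, 2.68%, 2.53% and 0.0116%. The replicate block left the other counts within 1.5 times: 5 and 30 for the genotype comparisons, 45 and 32 for the segment comparisons in WT and cKO, and 34 for cKO distal against WT proximal. Across genotypes the blocked libraries share only a number, with correlations of -0.148 to 0.0487 between same-numbered libraries of a segment. The cause of these shifts was not tested. Differences of the 7 members under 10 scaled counts rest on few reads, and counts of near-identical genes depend on how the authors assigned shared reads.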

Other observations

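Ugt1a6b had 0 reads in all 3 cKO distal libraries, which at a floor of 3 reads per library sets a limit on its level there, and no fold is given since the other groups were near that floor as well.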
